A study of Homo sapiens with 2 samples.

Results

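The promoter arrays used to look for GATA1 on chromatin carried 112659 probes that lay more than 2000 bp upstream of a gene's transcription start, out of 474411 genomic probes (23.7%). A probe was counted when the array annotation classed it as promoter, not as a promoter shared by a divergent pair of genes, and when the first RefSeq entry of the probe placed it more than 2000 bp upstream. Of these probes, 58919 of 237210 genomic probes lay on the array titled chIP1 and 53740 of 237201 on the array titled chIP2. They named 12453 genes, with a median of 8 probes per gene and at most 74. A further 213 promoter probes beyond the limit were left out because their first RefSeq entry carried an accession and no gene symbol.

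The samples came from untreated Meg-01 cells, an established human megakaryocytic leukemia cell line, and all chromatin was of this line. DNA pulled down with an antibody to GATA1 (the IP, labeled with Cy5) was hybridized together with DNA pulled down with normal goat IgG as the background (labeled with Cy3). The 2 arrays held different probes, split by genome position with chromosome 10 on both, so each probe was measured in 1 hybridization without a replicate or a dye swap. No p-value was therefore computed. The values of the 2 arrays are given side by side, and the precision of each value is limited by there being 1 array per probe.

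The zinc finger factor GATA1 recognizes short DNA elements with a GATA core and drives the genes of red cells, platelets and their precursors. Many of its sites lie in enhancers away from the transcription start, and several of its best known targets carry such an element a few kilobases upstream of the first exon. In a ChIP-on-chip experiment the IgG pull-down measures DNA that is recovered without the specific antibody, and a higher log ratio means more IP signal relative to that background. The median of each array was set to 0 here. A value above 0 therefore means a higher ratio than that of the median genomic probe, and directions toward the IP or the IgG are relative to it. The probes beyond 2000 bp sample the stretch between the core promoter and the region that these arrays no longer cover.

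The probes lay at a median distance of 3679 bp from the start and at most at 9999 bp, and the median gap between a probe and its neighbor was 188 bp. The coverage ended near 5500 bp for most genes, and 3159 of the probes (2.80%) lay further out. In all, 34.1% of the probes also lay inside another transcript listed by the annotation, and 6.36% lay within 2000 bp of another listed start. Probe length ran from 45 to 60 bases. After removal of 13 spots of uneven signal and of 184 probes that neither channel placed well above background, 112462 probes remained.

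The signals were low. On chIP1 the median raw signal of the remaining probes was 484 for the IP and 390 for the IgG, over local backgrounds of 336 and 270.5. On chIP2 the medians were 484 and 411, over local backgrounds of 334 and 269. The scanner software placed 99.8% of the probes well above background for the IP and 99.2% for the IgG. The probe values were the log2 ratio of processed IP over processed IgG intensity with the median of all genomic probes of the array set to 0, and their SD was 1.05 on chIP1 and 1.07 on chIP2. Both arrays carried control probes with 1 spot each, and those well above background in at least 1 channel were considered. Of these, 2314 were kept that on chIP1 were neither as dim nor as bright as the extremes of the distal probes. Their difference between the arrays had an SD of 0.23, or 0.16 per array. As they are not genomic probes and leave out the dimmest range, this SD is not the precision of the distal values.

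Relative to the median genomic probe of the array, promoter probes beyond 2000 bp leaned toward the IgG. Their median log2(IP/IgG) was -0.19, with -0.20 on chIP1 and -0.19 on chIP2, while promoter probes within 1000 bp of the start had a median of 0.18 (61082 probes). Promoter probes from 1000 to 2000 bp lay between them at -0.09. Probes of divergent promoters had a median of 0.14 and probes in the first 2000 bp of the gene body one of 0.11. Probes downstream of genes were the class closest to the distal promoter probes, with a median of -0.17.

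The change with distance was gradual and was nearly complete at the 2000 bp limit. In steps of 500 bp the median fell from 0.25 next to the start to 0.06, -0.07 and -0.11 before the limit, and it was -0.16 from 2000 to 2500 bp. From 2500 to 5500 bp it stayed between -0.22 and -0.19 in every step. Just inside the limit, from 2000 to 2250 bp, the median of 9020 probes was -0.17, and just outside it, from 1750 to 2000 bp, the median of 9363 probes was -0.12. The probes beyond 5500 bp returned to a median of -0.03.

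**Figure D1:**
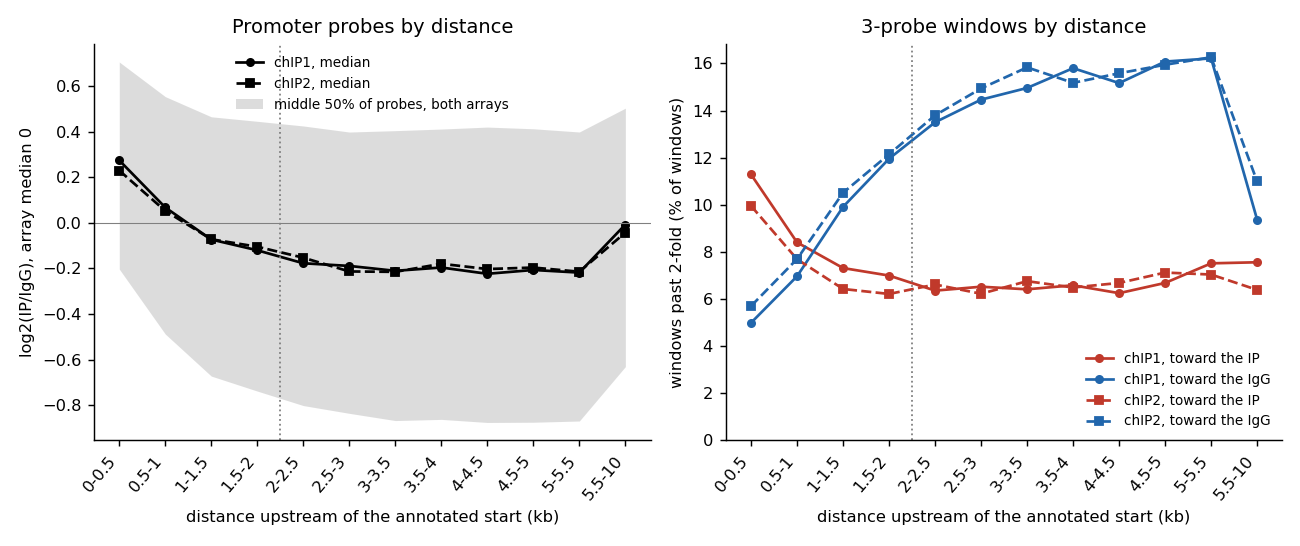
Promoter probes of both arrays in steps of distance upstream of the annotated start, with the median and the middle 50% of log2(IP/IgG) on the left and the percent of 3-probe windows past 2-fold toward the IP (red) and toward the IgG (blue) on the right. Solid lines are chIP1, dashed lines chIP2, and the dotted line marks 2 kb. Beyond 2 kb the medians of both arrays stay between -0.22 and -0.16 out to 5500 bp for both together, and the IgG side exceeds the IP side, while next to the start the IP side is the larger.

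The outermost probes differed from the others in what else was annotated around them. Of the probes beyond 5500 bp, 48.9% lay within 2000 bp of another listed start, against 5.13% of the nearer ones. Those close to another start had a median of 0.05 (1542 probes), and those at least 2000 bp from every listed start had a median of -0.15 (1611 probes). The same held over the whole set, where 7159 probes within 2000 bp of another start had a median of 0.03 and the other 105303 a median of -0.21. Probes inside another transcript had a median of -0.12 and probes outside any listed transcript one of -0.24.

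To find stretches of DNA in place of single spots, the mean was taken over windows of 3 adjacent probes that all lay beyond 2000 bp, each within 1000 bp of its neighbor. There were 81208 such windows. Of these, 5409 (6.66%) had a mean of at least 1, that is 2-fold toward the IP, against 7.62% of all 415409 windows on the arrays. Toward the IgG, 12389 windows (15.3%) passed 2-fold, against 9.65% of all windows. Windows toward the IP therefore made up 30.4% of the distal windows past 2-fold, with 30.3% on chIP1 and 30.5% on chIP2.

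Windows within 1000 bp of the start showed the opposite order, with 3303 of 33057 (9.99%) toward the IP and 2028 (6.13%) toward the IgG, an IP share of 62.0%. The gap in the IP share between far and near windows remained at higher thresholds. At 3-fold there were 1541 distal windows toward the IP and 3830 toward the IgG, and at 4-fold 612 and 1517. At 8-fold 42 and 127 remained, against 14 and 11 near the start. The distal IP side itself changed little with distance, since in the 500 bp steps from 2000 to 5500 bp, by the position of the center probe, between 6.38% and 7.30% of the windows passed 2-fold toward the IP, while the IgG side grew from 13.6% to 16.2%.

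The log ratio of the distal probes went with probe length, which is the sequence property that the annotation gives. Probes of 60 bases, the longest, made up 55.7% of the distal probes and had a median of -0.39. Probes of 45 bases, the shortest, made up 16.2% and had a median of 0.12. Near the start the order was the same, with medians of -0.15 at 60 bases and 0.29 at 45 bases, but there only 30.8% of the probes had 60 bases and 40.2% had 45. At equal length the distal probes were still the lower ones on both arrays, with -0.36 against -0.12 for 60-base probes of chIP1 and -0.43 against -0.19 for those of chIP2.

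Length also separated the windows. Of 26921 distal windows made only of 60-base probes, 25.2% passed 2-fold toward the IgG and 5.55% toward the IP. Of 4421 made only of 45-base probes, 0.860% passed toward the IgG and 4.95% toward the IP. The length of a probe and its distance from the start moved together, and what part of the log ratio goes with the DNA bound in the IP and what part with the probe itself was not tested.

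The spread of the values fell with spot intensity. In the dimmest of 4 equal intensity classes of the array the distal probes had an SD of 1.36 and a median of -0.25, and in the brightest class an SD of 0.64 and a median of -0.03. Of the distal windows in the dimmest class, 10.2% passed toward the IP and 23.1% toward the IgG. In the brightest class 3.25% and 3.73% did. Near the start the brightest windows were the most one-sided, with 9.88% toward the IP and 0.989% toward the IgG.

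**Figure D2:**
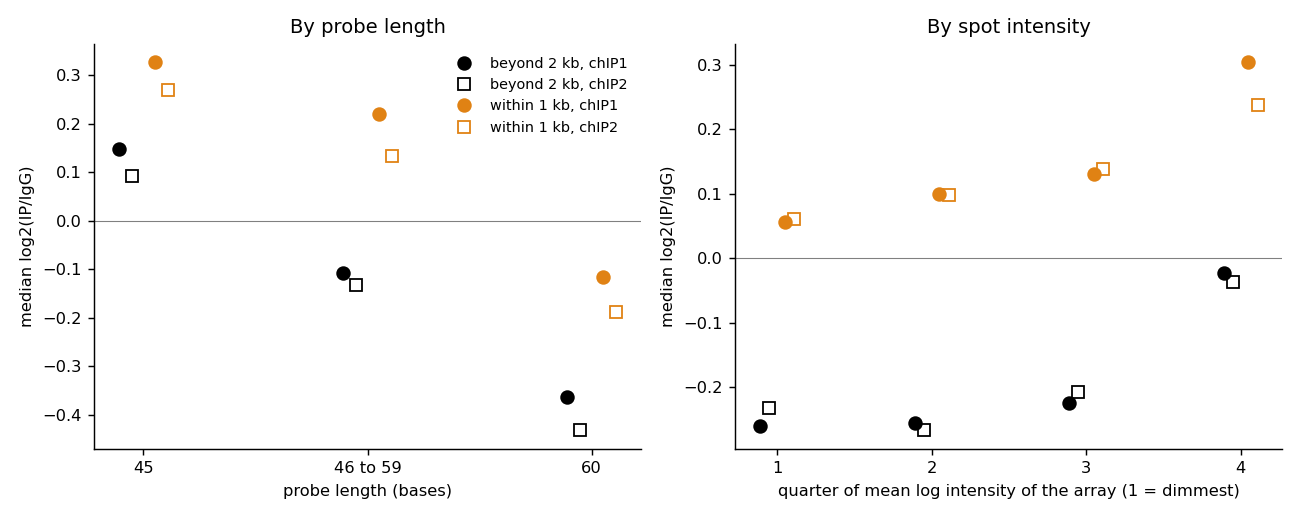
Median log2(IP/IgG) of promoter probes beyond 2 kb (black) and within 1 kb (orange) by probe length on the left and by class of spot intensity (4 equal classes) on the right. Filled circles are chIP1 and open squares chIP2. The distal probes lie below the near ones in every class on both arrays, and both sets fall with probe length, from 0.12 to -0.39 for the distal probes of both arrays together.

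The windows past 2-fold were dimmer than the rest. Windows toward the IP had a median intensity at the 20.2 percentile of all windows of the array and windows toward the IgG one at the 21.1 percentile, against 40.1 for windows that passed in neither direction. A window toward the IP had a median IP intensity of 706 and a median IgG intensity of 266 over its probes, while a window toward the IgG had 266 and 732. Windows past neither threshold had 694 and 758. In 54.7% of the windows toward the IgG all probes had 60 bases, against 27.6% of those toward the IP and 29.4% of the others. The 3 groups did not differ in distance, with medians of 3717, 3724 and 3696 bp. All 3 probes passed 2-fold by themselves in 21.4% of the windows toward the IP and in 34.9% of those toward the IgG.

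Neighboring distal probes resembled each other over short distances. The correlation across pairs of probes was r = 0.63 for pairs up to 200 bp apart (59827 pairs), 0.35 from 200 to 400 bp, 0.15 from 400 to 600 bp and 0.06 from 600 to 1000 bp. Near the start it was 0.62 at up to 200 bp (33242 pairs). These are descriptions, since the pairs share arrays, fragments and base composition.

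Distal windows past 2-fold were merged into regions where they lay no more than 1000 bp apart. The 5409 windows on the IP side formed 2623 regions, 1484 with 2 or more windows and 129 with 5 or more. The 12389 windows on the IgG side formed 4769 regions, 3030 with 2 or more windows and 664 with 5 or more. The median width was 636 bp on the IP side and 759 bp on the IgG side, and the widest region, on the IgG side, spanned 3569 bp.

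**Figure D3:**
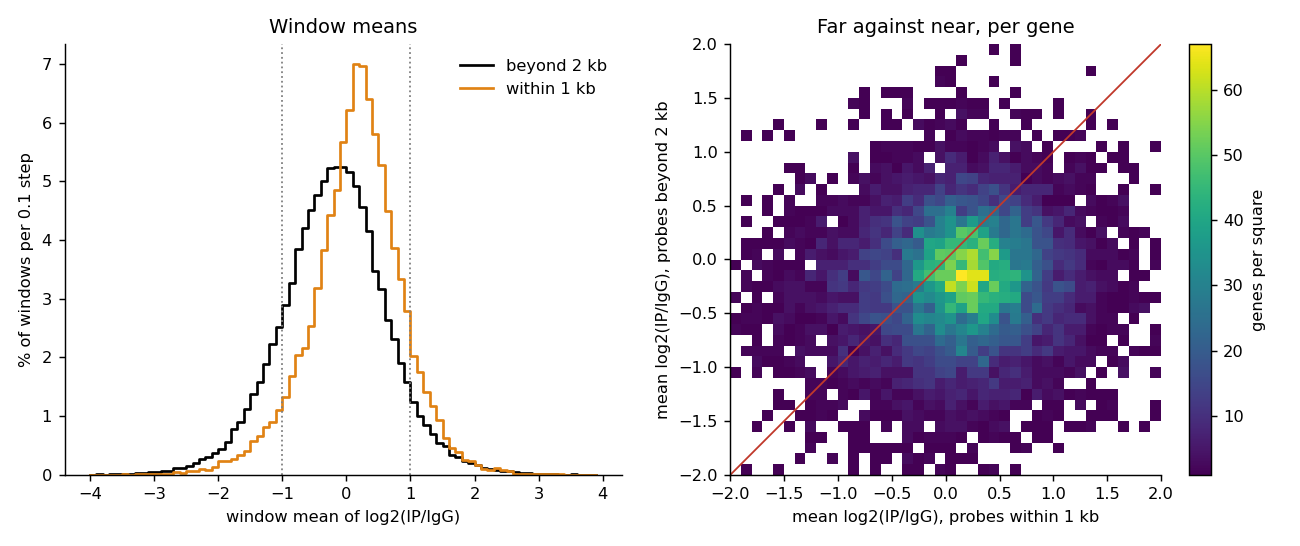
On the left, the means of 3-probe windows beyond 2 kb (black) and within 1 kb (orange), as percent of windows per step of 0.1 in log2(IP/IgG), with dotted lines at 2-fold. On the right, 9095 genes by the mean of their probes within 1 kb and beyond 2 kb. The color gives the number of genes, and most lie below the red line of equal values.

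Of 10403 genes with a distal window, 2439 (23.4%) had one toward the IP and 4144 (39.8%) one toward the IgG. Some of these were the same genes, since 932 had both, and 4752 had neither. Of 11382 genes with a window within 1000 bp of the start, 16.5% had one toward the IP and 10% one toward the IgG. Over any window of the arrays, 56% of 17031 genes had one toward the IP and 52.2% one toward the IgG. A gene with more windows has more chances of one past the threshold.

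Among 8712 genes with both kinds of window, 2128 had a distal window toward the IP and 1428 a near one, and 361 had both, which is 17.0% of the former and 25.3% of the latter. Over all these genes 24.4% had a distal and 16.4% a near IP window, so the overlap on the IP side was close to these shares. On the IgG side 3561 genes had a distal window, 970 a near one and 533 both. That is 15.0% of the former, beside 11.1% of all these genes with a near window. It is 54.9% of the latter, beside 40.9% of all these genes with a distal window.

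In the mean over probes, 9095 genes had at least 3 probes in each place. The distal mean was below the near mean in 6121 of them (67.3%), with 67.7% on chIP1 and 66.8% on chIP2. The median difference was -0.34, and the middle 50% of genes lay between -0.85 and 0.16. With 60-base probes alone the difference shrank to a median of -0.14 over 2215 genes, and the distal mean was lower in 56.3% of them. Across genes the correlation between distal and near means was r = 0.07 (9095 genes, which are not independent replicates).

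The chromosomes differed in both directions. Chromosome X had the highest share of distal windows on either side, with 10.9% toward the IP and 25.2% toward the IgG, the dimmest probes (median log2 intensity 8.22) and the widest spread of probe values (SD 1.38). Chromosome 19 had the fewest toward the IgG (5.46%), with 4.87% toward the IP, the brightest probes (10.3) and 28.8% of 60-base probes against 64.1% on chromosome X. Chromosomes 21, 8 and 18 had the fewest windows toward the IP, with 2.22%, 2.72% and 3.69%, beside 15.0%, 12.9% and 17.0% toward the IgG. On each of the 23 chromosomes the median of the distal probes lay below that of the probes within 1000 bp.

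The distal region of GATA1 itself was covered by 6 probes. The gene, on chromosome X, is known to be under the control of an upstream hematopoietic enhancer that GATA1 binds. From the far to the near end, at -4090, -3993, -3565, -3348, -3234 and -2090 bp, the log2(IP/IgG) of the probes was 0.00, 0.52, 1.43, 1.21, 0.96 and -0.84. The highest 3 lay side by side and formed a window with a mean of 1.20 at chrX:48397622-48398005 on the array's coordinates, whose genome build is not given in the sources used here. All 3 probes also lay inside another listed transcript. IP intensities there were 8684, 766 and 4115 against IgG intensities of 3212, 330 and 2106, which put the window at the 84.6 percentile of intensity. The value was 1.12 with the other background correction tried (normexp, which models the local background) and 1.13 after loess, but no GATA1 window of 5 probes passed 2-fold, the highest having a mean of 0.82. The 6 probes within 1000 bp of the GATA1 start had a median of 0.28 and did not exceed 0.88.

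Other genes that the study names gave distal windows as well. Of the 12 such genes with a distal window, 7 (58.3%) had one toward the IP, beside 23.4% of all genes, and 3 (25%) one toward the IgG, beside 39.8%. The study named some of them from these arrays, so their direction is not independent evidence. For VEGF, the vascular endothelial growth factor gene, 16 probes ranged from -1.87 to 2.65 with a median of 0.10. Its window at chr6:43842032-43842395, centered at -3663 bp, had probes of 1.58, 2.65 and 2.00 and a mean of 2.08, and the probes next to it on either side measured 0.65 and 0.23. The 6 VEGF probes near the start had a median of -0.21.

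IGFBP7, which encodes a secreted protein that binds insulin-like growth factors, was the gene of this group whose distal probes were all above 0. Its 8 probes ran from 0.20 to 2.06 with a median of 0.99, and its highest window had a mean of 1.37. ANXA5, the gene of the phosphatidylserine-binding annexin A5, was split by distance. Its 6 probes from -4887 to -3971 bp measured 0.36 to 2.04, and its 5 probes from -3675 to -2502 bp measured -2.02 to -0.16. It had a window past 2-fold in each direction, the lower one with a mean of -1.11. The lower one fell under 2-fold with loess, with normexp (-0.78) and in windows of 5 probes (-0.89).

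IL1A, the interleukin 1 alpha gene, had 1 distal window, with a mean of 1.37 and probes of 0.84, 1.90 and 1.37. CD34, a surface marker of hematopoietic progenitors, had its highest window at -2384 bp with a mean of 1.25. RUNX3, a runt-domain transcription factor, had 32 distal probes because of its separate starts, from -1.54 to 1.46, and a highest window of 1.37 that lay inside a longer RUNX3 transcript. With normexp the windows of IL1A and RUNX3 stayed past 2-fold (1.11 and 1.19), and those of CD34 and IGFBP7 did not (0.53 and 0.80).

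NCAM1, the neural cell adhesion molecule, and DYRK1A, a kinase gene of chromosome 21, had their lowest distal windows at -1.44 and -1.39 and none toward the IP. The NCAM1 window fell under 2-fold with normexp (-0.82), as did its lowest window of 5 probes (-0.98). BCL2L1, which encodes the survival protein BCL-XL, had 1 distal window with a mean of -0.22. MYCN, a MYC family oncogene, had 1 at -0.88, and EVI1, a zinc finger oncogene of myeloid leukemia, ranged from -0.60 to 0.10 over its windows. None of these 3 genes had a distal window past 2-fold in either direction.

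The regions furthest toward the IP were dim ones. The 10 highest regions with at least 2 windows had window means from 3.32 to 3.77, and all 3 probes of each passed 2-fold. Their window intensities lay between the 1.47 and 16.5 percentiles of the array. In 4 of the 10, that of IL6 among them, all probes also lay inside another listed transcript, against 2 of the 10 furthest toward the IgG. IL6, the gene of the acute-phase cytokine interleukin 6, was the first, with a mean of 3.77 at chr7:22535081-22535383. There, 5 adjacent probes from -5060 to -4544 bp measured 3.14, 3.18, 3.09, 5.03 and 3.12, and the next probes on either side -0.99 and 0.53. Their IP intensities of 1062 to 2335 stood against IgG intensities of 32.9 to 257. With normexp the same window had a mean of 1.81.

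For CDYL2, a chromodomain gene, the highest window measured 3.63 at -2534 bp, and for TBC1D4, a regulator of glucose transporter traffic, 3.53 at -4805 bp. BFSP2, a lens filament gene, had 3.52 at -3194 bp. All probes of these windows were well above background in both channels. In the other 6 regions at least 1 IgG probe was not well above background, so their ratios are uncertain and are not minima. The measured ratios were 12.7-fold for KIAA2022, 12.6-fold for WDR64 and 11.6-fold for GDF10 (a growth factor of the TGF-beta family). They were 11.5-fold for KLF12 (a Krüppel-like repressor), 11.1-fold for C10orf82 and 9.99-fold for the olfactory receptor gene OR51F2. Of the 16 distal probes of GDF10, 3 lay above 1 and 7 below -1, and of the 16 of KIAA2022, 5 and 6 did. For WDR64, KLF12 and C10orf82 more probes lay above 1 than below -1. With both channels required well above background, the highest GDF10 and OR51F2 windows were 1.39 and 0.42. With normexp, 5 of the 10 windows stayed past 2-fold, namely those of IL6, TBC1D4, GDF10, CDYL2 and BFSP2. Those of WDR64, C10orf82, KIAA2022, KLF12 and OR51F2 fell to 0.91, 0.64, 0.41, 0.19 and 0.17.

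Among windows above the median intensity of the array, 1003 distal windows in 617 regions passed toward the IP and 1998 in 1225 regions toward the IgG. The 5 highest on the IP side were those of FLJ12056 (2.97), IFNK (2.66), JM11 (2.61), LRRC4 (2.57) and NR4A3 (2.46). IFNK encodes an interferon of keratinocytes, LRRC4 a synaptic adhesion protein and NR4A3 an orphan nuclear receptor. The NR4A3 window, at -4168 bp from the start used here, lay inside another listed NR4A3 transcript, 704 bp past the start of that one. Of the 5 windows, 3 had all probes inside another listed transcript. All 5 passed 2-fold with normexp too, at 1.44 to 2.31. The 3 LRRC4 probes were uneven, at 1.32, 4.94 and 1.45.

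On the IgG side the 10 furthest regions had window means from -4.34 to -3.64 and lay between the 0.121 and 3.25 percentiles of intensity. With normexp they measured -1.67 to -0.85, and 8 of the 10 stayed past 2-fold. KIAA1166 on chromosome X had the lowest window, with probes of -5.73, -2.28 and -5.02. Its IP intensities there were 8.51, 42.7 and 7.12 against IgG intensities of 449, 206 and 230. At least 1 IP probe was not well above background in 7 of the 10 windows, so their ratios are uncertain and are not minima. The KIAA1166 window measured 20.2-fold toward the IgG in this way, and its mean was -1.07 with normexp. The other genes were ZNF608, C9orf123, TEKT3 (a sperm flagellum tektin), SLC6A14 (an amino acid transporter), GUCY1A2 (a subunit of soluble guanylate cyclase), SOX5 (an HMG-box factor), FBXL14, PTPRK (a receptor phosphatase) and CPXCR1. Of the 30 probes in these 10 windows, 26 had 60 bases, against 17 of 30 on the IP side.

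Among windows above the median intensity, the 5 furthest toward the IgG were those of LGI1 (-2.87), YIPF6 (-2.83), SPAG4 (-2.50), ZDHHC21 (-2.48) and RDBP (-2.48). LGI1 encodes a secreted neuronal protein, and RDBP a subunit of the negative elongation factor of RNA polymerase II. All 15 probes were well above background in both channels, and the windows measured -2.18 to -1.72 with normexp.

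**Figure D4:**
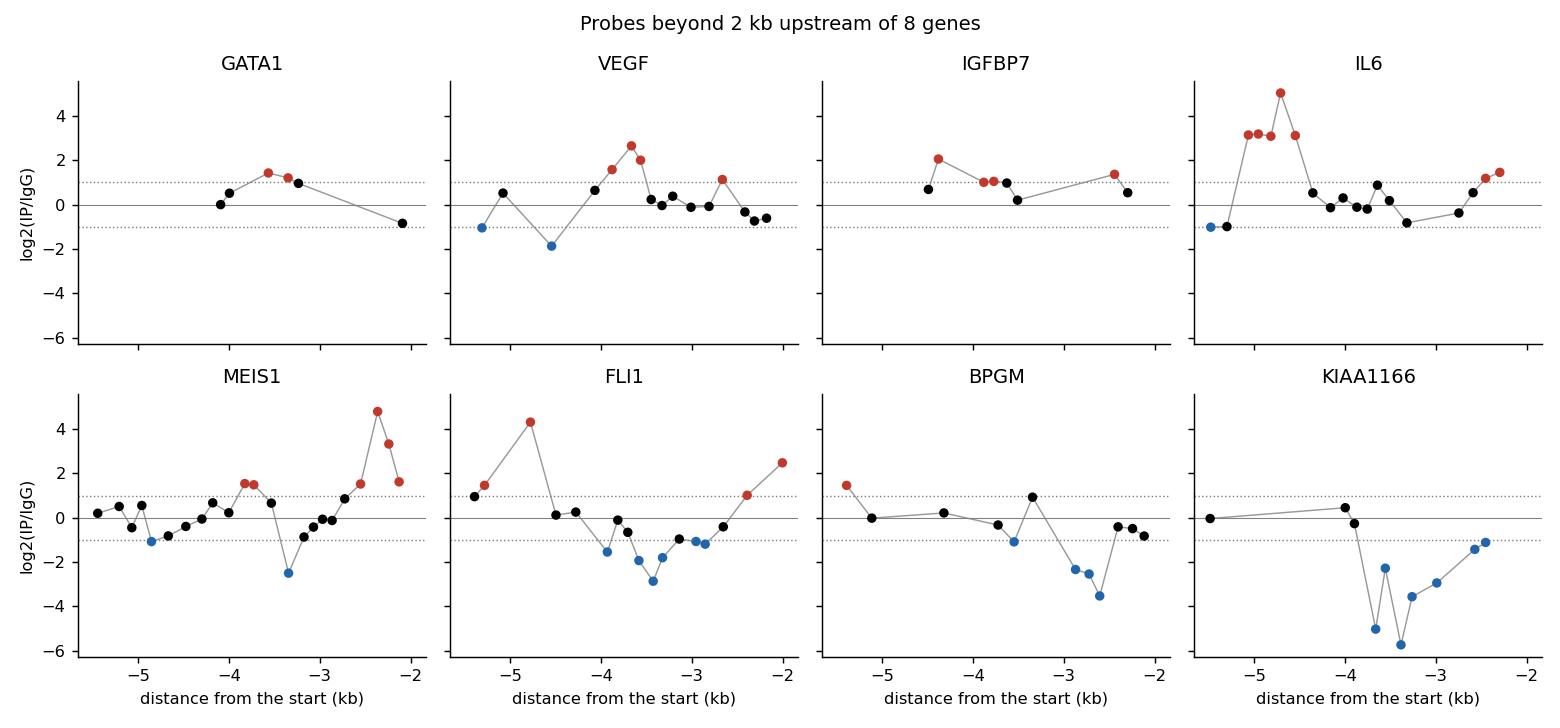
Log2(IP/IgG) of each probe beyond 2 kb upstream of 8 genes against its distance from the annotated start. Red points are at least 2-fold toward the IP, blue points at least 2-fold toward the IgG, and dotted lines mark 2-fold. The highest probes of GATA1, VEGF, IL6 and MEIS1 measure 1.43, 2.65, 5.03 and 4.79, FLI1 has stretches on both sides, and BPGM and KIAA1166 dip to -3.53 and -5.73.

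The genes of the lineage that GATA1 serves had distal windows on both sides. Over lists of erythroid genes, of megakaryocyte and platelet genes and of hematopoietic transcription factors, 75 genes had a distal window. Of these, 28 (37.3%) had one toward the IP, beside 23.4% of all genes, and 31 (41.3%) one toward the IgG, beside 39.8% of all genes. Both kinds were present in 8 and neither in 24.

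Among these 3 lists, the transcription factors had the most genes on the IP side. Of 23 factors with a distal window, 12 (52.2%) had one toward the IP and 11 (47.8%) one toward the IgG. The median of the highest window per factor was 1.07, beside 0.46 over all genes. The factors had a median of 15 distal probes per gene and all genes one of 8. Counted by windows, 42 of 305 (13.8%) lay toward the IP, beside 6.66% of all distal windows, and 31 (10.2%) toward the IgG, beside 15.3%.

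MEIS1, a homeobox factor of hematopoietic stem cells and leukemia, had the highest window, with probes of 4.79, 3.32 and 1.62 and a mean of 3.24 at chr2:66571796-66572079, centered at -2240 bp. IP intensities of 848, 1267 and 482 faced IgG intensities of 30.8, 127 and 158, and the mean was 1.27 with normexp. GFI1, a repressor of the zinc finger type that acts in blood stem cells and granulocytes, followed at -5177 bp with probes of 2.02, 3.03 and 1.72 and a mean of 2.25. Both genes also had a window past 2-fold toward the IgG, the lowest at -1.26 for MEIS1 and -1.68 for GFI1. The median distal probe was 0.22 for MEIS1 and -0.35 for GFI1. For CBFB, the partner of the RUNX factors, the highest window had probes of 0.75, 2.15 and 3.13, and its mean fell to 0.61 with normexp.

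FLI1, an ETS factor of megakaryocytes, likewise held windows past 2-fold in both directions among its 17 distal probes. Its window centered at -5279 bp had a mean of 2.24 that rested on 1 probe of 4.31 beside 1.46 and 0.95. Its lowest window, at -3424 bp, had probes of -1.93, -2.86 and -1.80 and a mean of -2.20. The lower window lay near the median of intensity (49.3 percentile), as did the upper one (53.8). TAL1, GATA2 and NFE2, factors that work together with GATA1, had highest windows of 1.85, 1.77 and 1.77, and no window of GATA2 was below 0.26. Other factors of the list were lower or mixed. ZFPM1, LMO2 and RUNX1 reached 0.43, 0.68 and 0.69, under the 2-fold threshold, and LMO2 and RUNX1 had lowest windows of -1.25 and -1.18. LDB1 ran from -1.35 to 1.45.

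Of 27 megakaryocyte and platelet genes, 10 (37.0%) had a distal window toward the IP, beside 23.4% of all genes, and 10 (37.0%) one toward the IgG, beside 39.8%. Thrombospondin 1 (THBS1) had the highest, with a mean of 2.12 from uneven probes of 4.08, 2.28 and -0.02, which was 0.36 with normexp. The scavenger receptor gene CD36 had the lowest window of the 3 lists, with probes of -2.74, -3.21 and -3.41 and a mean of -3.12. CD36 has several listed starts, and its 29 distal probes ran from -3.41 to 2.46. The platelet chemokine genes PF4V1 and PPBP had lowest windows of -2.07 and -2.04, and neither had a distal window above 0. ITGA2B, the platelet integrin alpha IIb, reached 0.96, and PF4, platelet factor 4, reached 0.65, both under the 2-fold threshold.

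Of 25 erythroid genes, 6 (24%) had a distal window toward the IP and 10 (40%) one toward the IgG, both near the shares of all genes (23.4% and 39.8%). The membrane skeleton gene EPB41 had a highest window of 1.49. ALAS2, the erythroid enzyme of the first step of heme synthesis, ranged from -1.06 to 0.13. BPGM, which makes the 2,3-bisphosphoglycerate of red cells, had the lowest window, with probes of -2.34, -2.54 and -3.53 and a mean of -2.80. The hemoglobin genes spread from -1.42 for the lowest window of HBB to 1.16 for the highest of HBA2. HBA2 has a near-identical copy, so that its probes may share signal with it.

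Lists not chosen for the blood lineage, and the genes that the study tabulated, were counted in the same way. Over all genes the shares were 23.4% toward the IP and 39.8% toward the IgG. Of 27 genes of other tissues, such as ALB of liver and GFAP of glia, 10 (37.0%) had a distal window toward the IP and 12 (44.4%) one toward the IgG. Counted by windows, 20 of 264 (7.58%) lay toward the IP, beside 6.66% of all distal windows, and 25 (9.47%) toward the IgG, beside 15.3%. Of 10 housekeeping genes, 2 (20%) had one toward the IP and 4 (40%) one toward the IgG, and this list shares members with the erythroid list. Of 31 genes that the study tabulated, 17 (54.8%) had one toward the IP and 10 (32.3%) one toward the IgG, but they were picked by the study from these very arrays, so their IP count is not independent evidence. Among them, IL6 (3.77), ZBTB16 (2.80), LAMB1 (2.60), EDNRB (2.56), RPS3A (2.25) and CABLES1 (2.22) had the highest distal windows.

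**Figure D5:**
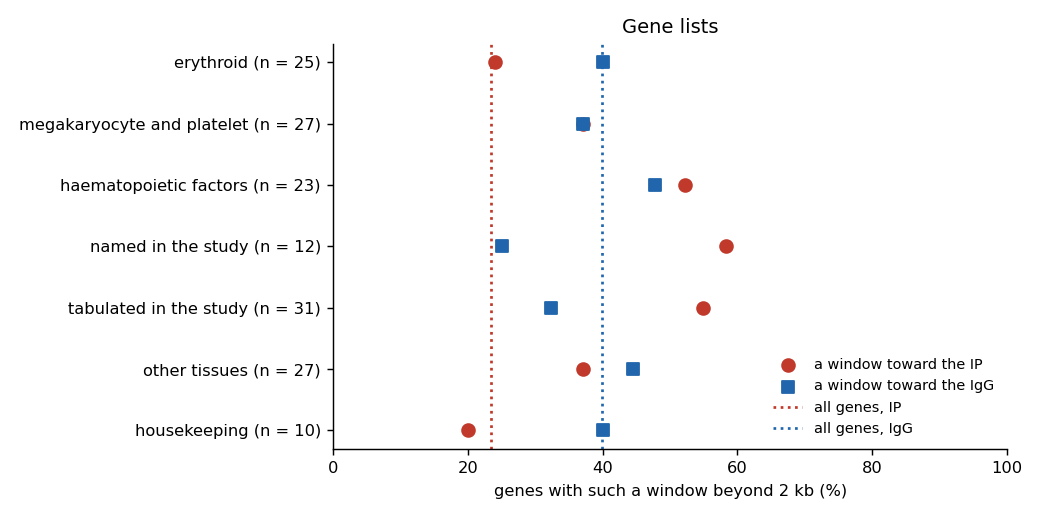
Percent of the genes of each list that had a window beyond 2 kb past 2-fold toward the IP (red circles) or toward the IgG (blue squares). Here n is the number of genes with such a window at any value, and dotted lines mark all 10403 genes. The hematopoietic factors lie at 52.2% toward the IP and the genes of other tissues at 37.0%, beside 23.4% of all genes.

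Gene families, set by the start of the symbol after the other values had been seen, differed in both directions. Olfactory receptor genes, which act mainly in the nose and lie in AT-rich clusters, had a median distal probe of -0.59 over 2824 probes. Of 256 such genes, 177 (69.1%) had a window toward the IgG, beside 39.8% of all genes. Of their distal probes 82.1% had 60 bases, and their median log2 intensity was 8.30. Histone genes had a median of -0.37 with 83.8% of 60-base probes, and 1 of 15 had a window toward the IP, beside 23.4% of all genes. Ribosomal protein genes (-0.04) and interleukins with their receptors (-0.09) lay nearest to 0. HOX genes, the homeobox genes of body patterning, had 34.6% of 60-base probes, a median of -0.10, 12 of 32 genes (37.5%) with a window toward the IP and 16 (50%) with one toward the IgG. By windows, 7.07% of theirs lay toward the IP, near the 6.66% of all distal windows. Across these families the share of distal windows toward the IP ran from 1% for histones to 9.66% for chemokines.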

How the data were processed

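The authors deposited the Agilent scanner output of 2 promoter arrays, made with Agilent Feature Extraction 9.5.3.1 per the file headers. The deposited processed intensity of each channel carries spatial and linear dye correction, and the deposited log10 ratio (IP over IgG) is also in the series value table. The study's lowess, error model and peak shape steps were not used here. Each probe value was log2 of the processed intensity ratio, with the array median set to 0. Control spots and uneven spots were left out, as were probes that neither channel placed well above background. Windows held 3 adjacent probes with neighbors within 1000 bp, were called at a mean of 1 or -1, and were joined within 1000 bp. The window code was run on simulated data with independent noise of a smaller spread than that of the real probes. That run checks the code and gives no error rate for the windows called here. Without replicates no test was run.

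Alternatives were loess (span 0.3) and normexp (offset 50) with limma 3.58.1 in R 4.3.3, the series value table, other filters, window sizes, thresholds and distance limits. Python 3.11.15 with numpy 2.4.6 and pandas 2.3.3 was used. For a channel not well above background, the folds given used the lowest signal well above background of that array and channel, or the probe's own where higher. Such folds are not minima. Named genes are those of the 10 highest regions of at least 2 windows on each side, of the 5 highest regions on each side among windows above the median intensity, of the 5 highest and 5 lowest lineage genes, and of the study. Other genes and the families were named after their values were seen. The probes and lists were chosen with earlier results of these data known. The GATA motif count was not run, because no probe sequence or genome of the array's build was used here. A check of base composition at gene starts is void, since 79.0% of 9095 genes had a RefSeq start sequence, under the 80% required.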

Additional observations from a re-analysis of the deposited data

How the results depend on the processing

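The direction of the distal probes toward the IgG held in every alternative run, but the number of windows past 2-fold did not. With normexp, which shrinks ratios of dim spots by construction, 1154 windows passed toward the IP and 3346 toward the IgG, 624 and 1636 genes had one, and the IP share was 25.6%. Windows of 5 probes gave 2480 and 7158 windows, 982 and 2213 genes and an IP share of 25.7%, and single probes gave 12460 and 22935, 6131 and 7984 genes and 35.2%. At 1.5-fold there were 12630 and 24468 windows, 4502 and 6625 genes and a share of 34.0%, and at 3-fold 1541 and 3830 windows, 844 and 1672 genes and 28.7%. Loess moved the IP share to 37.4%, the median of the distal probes to -0.15 and its difference from the near probes to -0.31, from -0.37. Requiring both channels well above background gave a share of 28.9%. A limit of 1500 bp gave a median of -0.18, and a limit of 3000 bp left 3577 and 8149 windows. Keeping only probes that every listed entry placed more than 2000 bp upstream also dropped those inside another transcript. This left 3581 windows toward the IP, with a share of 29.2%, a median of -0.24 and a difference of -0.42. Each array alone held 2559 to 2850 windows toward the IP and 5842 to 6547 toward the IgG, and 1152 to 1287 and 1980 to 2164 genes, since the arrays hold different probes, and the difference from the near probes was -0.40 to -0.35. Of the 50 named windows past 2-fold, each at its own position, 13 fell under 2-fold with normexp and 1 with loess, and none changed sign in either. The most extreme window of each named gene was also chosen anew under each setting, which can pick another window. Of 248 such values 232 stayed past 2-fold, and 10 were lost with normexp, 4 with windows of 5 probes, 1 with loess and 1 with both channels required. The 232 include 50 from the series value table, which holds the same ratios and so is not a separate check. No paired analysis was possible because there was 1 hybridization per probe and nothing to pair. Signal close to background limits the values of dim spots.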
